A study of Rattus norvegicus with 16 samples.

Results

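The insulin-like growth factor (IGF) axis was followed in the stomach and the middle intestine of suckling rats through 10 genes, which were the ligands Igf1 and Igf2, the receptors Igf1r, Insr and Ghr, and the binding proteins Igfbp2, Igfbp3, Igfbp4, Igfbp5 and Igfbp6. The members were chosen by their gene name in the array design and not by their measured values. They were covered by 16 probes, with 1 probe for 5 genes, 2 probes for 4 genes and 3 probes for Ghr, out of 30367 probes and 19776 gene names. All 16 probes were among the 21174 probes kept for testing.

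Expression was measured on 16 Agilent 2-colour microarrays, with 4 arrays in each of 4 groups of pups of Wistar rats (Wistar Han in the study's methods). The 2 C groups came from pups given saline, and the 2 OH groups from pups given 250 nmol of obestatin per kg of body weight, obestatin being a hormone encoded by the same gene as ghrelin. Both were given by gavage 2 times a day from day 14 of life, and the tissues were taken on day 21, while the pups were still with their mothers. Each array held Cy5-labelled RNA of 1 tissue sample and Cy3-labelled RNA of a common reference, described as a pool of stomach and middle intestine RNA of all rats of the study. All values below are log2 ratios of Cy5 over Cy3, so that 0 means a level equal to the reference and a difference of 1 means a 2-fold difference. Whole litters were assigned to a treatment, each group lay on a slide of its own, and the C and OH slides were scanned on different days, so treatment cannot be told apart from litter, slide or day of scanning. Stomach and middle intestine of the same treatment were scanned on the same day but on separate slides. It is not stated which arrays came from litter mates, so the p-values measure the spread between the arrays.

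IGF1 and IGF2 are secreted peptides that promote growth. Both signal through the IGF1 receptor, and the closely related insulin receptor also binds IGF2 in 1 of its splice forms. Growth hormone acts through its receptor to raise Igf1 transcription, above all in the liver, while many tissues, the gut wall among them, also make IGF1 locally in their mesenchymal cells. The IGF binding proteins hold the ligands in blood and tissue and can limit or prolong their access to the receptor. Igf2 is an imprinted gene with high expression before birth that is shut down in most rodent tissues in the weeks after it.

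The probes of this array are 60 bases long, and those shown here lie in protein-coding sequence of the genes whose differences between the tissues are described below, together with Igfbp6. Positions are on rn4, as given in the design of the array, and the sequences are written 5′ to 3′ in the sense of the transcript. Capitals mark a stop codon that closes an otherwise open reading frame at the end of the probe.
Igf1, chr7:24587916-24587975, plus strand: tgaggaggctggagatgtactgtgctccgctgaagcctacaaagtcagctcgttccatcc
Igfbp2, chr9:71993843-71993902, plus strand: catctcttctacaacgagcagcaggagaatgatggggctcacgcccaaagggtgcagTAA
Igf1r, chr1:122989150-122989209, plus strand: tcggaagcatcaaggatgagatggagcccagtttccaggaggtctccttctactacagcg
Ghr, upstream probe, chr2:52524230-52524289, minus strand: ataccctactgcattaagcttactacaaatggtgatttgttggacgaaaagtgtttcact
Ghr, probe at the end of the reading frame, chr2:52497358-52497417, minus strand: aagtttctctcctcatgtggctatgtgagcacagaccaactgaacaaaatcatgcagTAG
Igfbp6, chr7:140888422-140888481, plus strand: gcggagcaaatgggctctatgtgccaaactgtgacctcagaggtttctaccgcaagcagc
The Igfbp2 and Ghr probes that end in capitals cover the last codons of the protein. The upstream Ghr probe covers the part of the receptor that binds the hormone, and the array design lists it for 2 Ensembl transcripts, whereas the other Ghr probes are each listed for 1.

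Signals of the members were well above background in Cy5 in 255 of the 256 combinations of probe and array, the exception being 1 Insr probe on C middle intestine array 4, and none was saturated. Across arrays, between 69.4% and 77.6% of the 58717 spots that were not controls were well above background in Cy5. Marker genes parted the tissues as labelled, since the mean of 10 gastric mucosa genes lay between 2.22 and 3.40 on the 8 stomach arrays and between -4.22 and -3.69 on the 8 middle intestine arrays, and the mean of 12 enterocyte genes lay between -3.39 and -3.18 on the former and between -0.92 and 1.03 on the latter. In pieces of whole tissue, fewer cells of a type and less RNA per cell cannot be told apart. C stomach array 2 stood apart from the other arrays of its group. Its mean over 9 striated muscle genes was -1.03 against 3.01, 2.601 and 3.26 on arrays 1, 3 and 4, and the values without it are given beside the results that it moved most.

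**Figure D1:**
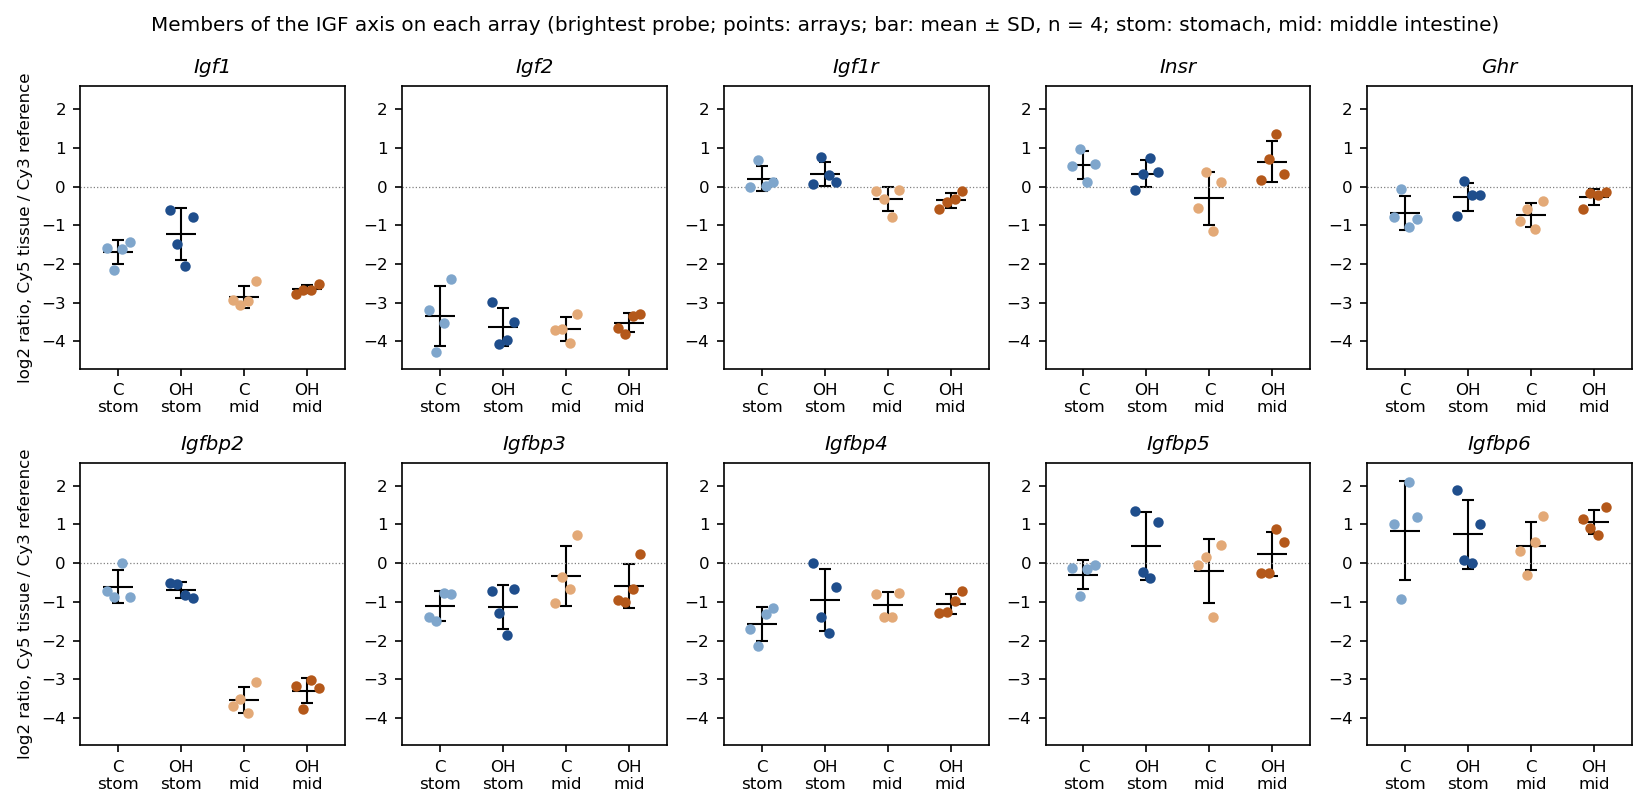
Log2 ratio of tissue (Cy5) over common reference (Cy3) of each member, read by its brightest probe, on the 16 arrays in the 4 groups (points: arrays; bars: mean ± SD, n = 4). Igfbp2 and Igf1 are higher on every stomach array than on every middle intestine array, whereas Igf2 is at or under -2.40 on all 16 arrays.

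The first question was how the axis differed between stomach and middle intestine. Igfbp2 and Igf1 were higher in stomach in both the C and the OH rats, Igf1r was higher by a smaller amount, and no member passed the test in the other direction. By the brightest probe of each gene, 4 of the 10 members passed limma's moderated test at an adjusted p of 0.05 in C stomach against C middle intestine, and 3 of the 10 in OH stomach against OH middle intestine, all of them higher in stomach. Over all 21174 probes, 44.9% passed in the first comparison and 38.2% in the second, with 22.7% and 19.2% higher in stomach, and of the 16 member probes 7 and 6 passed, all of them higher in stomach. As shares of the member probes these were 43.75% and 37.5%, close to the shares of all probes called in either direction and above the shares called higher, but probes of a gene are not independent and 4 of the 7 and 4 of the 6 belonged to Igf1 and Igfbp2. The arrays of the tissues did not overlap for 6 member probes in C and 5 in OH, beside 43.7% and 35.2% of all probes. The median difference of the 10 members was 0.36 in C and 0.05 in OH, beside -0.01 and 0.01 over all probes.

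Igfbp2, the binding protein that is abundant in fetal and neonatal rat tissue, had the largest difference of the axis. Its brightest probe gave log2 ratios of -0.72, -0.88, 0.01 and -0.88 on the C stomach arrays, and of -0.50, -0.53, -0.83 and -0.91 on the OH stomach arrays. In middle intestine it gave -3.70, -3.52, -3.87 and -3.07 on the C arrays and -3.19, -3.77, -3.03 and -3.22 on the OH arrays. All 8 stomach arrays thus lay more than 2 units above all 8 middle intestine arrays, with no overlap. The difference was 2.92 ± 0.23 (SE, adjusted p = 1.27e-07, limma) in C, a 7.58-fold higher level in stomach (95% interval 5.42 to 10.6), and 2.61 ± 0.23 (adjusted p = 4.79e-07, limma) in OH, or 6.09-fold (4.35 to 8.52). The second probe of the gene, whose sequence ends in the stop codon, gave 2.90 and 2.68. The Cy5 signal alone differed by 2.94 in C and 2.57 in OH, while the Cy3 signal of the reference differed by -0.02 and -0.04. Leaving out single arrays moved the difference between 2.71 and 3.08 in C and between 2.45 and 2.70 in OH.

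Igf1, the growth-promoting ligand, was also higher in stomach. Its brightest probe gave -1.59, -2.14, -1.61 and -1.42 on the C stomach arrays and -2.92, -3.06, -2.96 and -2.43 on the C middle intestine arrays. The OH arrays gave -0.59, -1.48, -2.05 and -0.78 in stomach and -2.78, -2.66, -2.66 and -2.52 in middle intestine. The tissues did not overlap in either treatment, and the OH arrays spread more widely in stomach (SD 0.67) than in middle intestine (SD 0.11). The difference was 1.15 ± 0.27 (SE, adjusted p = 0.00287, limma) in C, or 2.22-fold (95% interval 1.499 to 3.30), and 1.43 ± 0.27 (adjusted p = 0.000677, limma) in OH, or 2.69-fold (1.81 to 3.99). The probe printed above gave 0.94 and 1.18, with adjusted p values of 0.00594 and 0.00151 by limma. Both probes had nearly the same course over the 16 arrays (Pearson's r = 0.991, a description of arrays that share the tissue difference and the reference).

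Marker genes of other cells moved with the tissue as well. In C stomach against C middle intestine, 7 of the 9 striated muscle genes kept, 5 of 8 pancreas genes and 2 of 3 adipocyte genes passed as higher in stomach, while 2 of 8 smooth muscle, 2 of 4 endothelial and 2 of 4 leukocyte genes passed as lower. In OH stomach against OH middle intestine the counts were 2 of 9 striated muscle, 4 of 8 pancreas and 2 of 3 adipocyte genes as higher, and 0 of 8 smooth muscle, 0 of 4 endothelial and 2 of 4 leukocyte genes as lower. Over all probes, 22.7% passed as higher and 22.3% as lower in C. In OH 38.2% passed in either direction, 19.2% of all probes being higher. The mean of the fibroblast list overlapped between the tissues. It ranged from -1.85 to -0.71 on C stomach arrays and from -1.29 to -0.43 on those of C middle intestine, with 1 of 8 genes passing as higher and 1 as lower. On the OH arrays it ranged from -1.68 to 0.53 in stomach and from -1.11 to -0.23 in middle intestine, with 1 gene passing as higher and 0 as lower. With the mean of the fibroblast list on each array as a covariate, a setting added after the data had been seen, the Igf1 difference was 1.24 in C (adjusted p = 3.53e-07, limma) and 1.28 in OH (adjusted p = 3.03e-07, limma), and that of Igfbp2 was 2.95 and 2.57. The part of fibroblasts and of the striated muscle, pancreas and adipocyte lists in these differences was not tested.

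**Figure D2:**
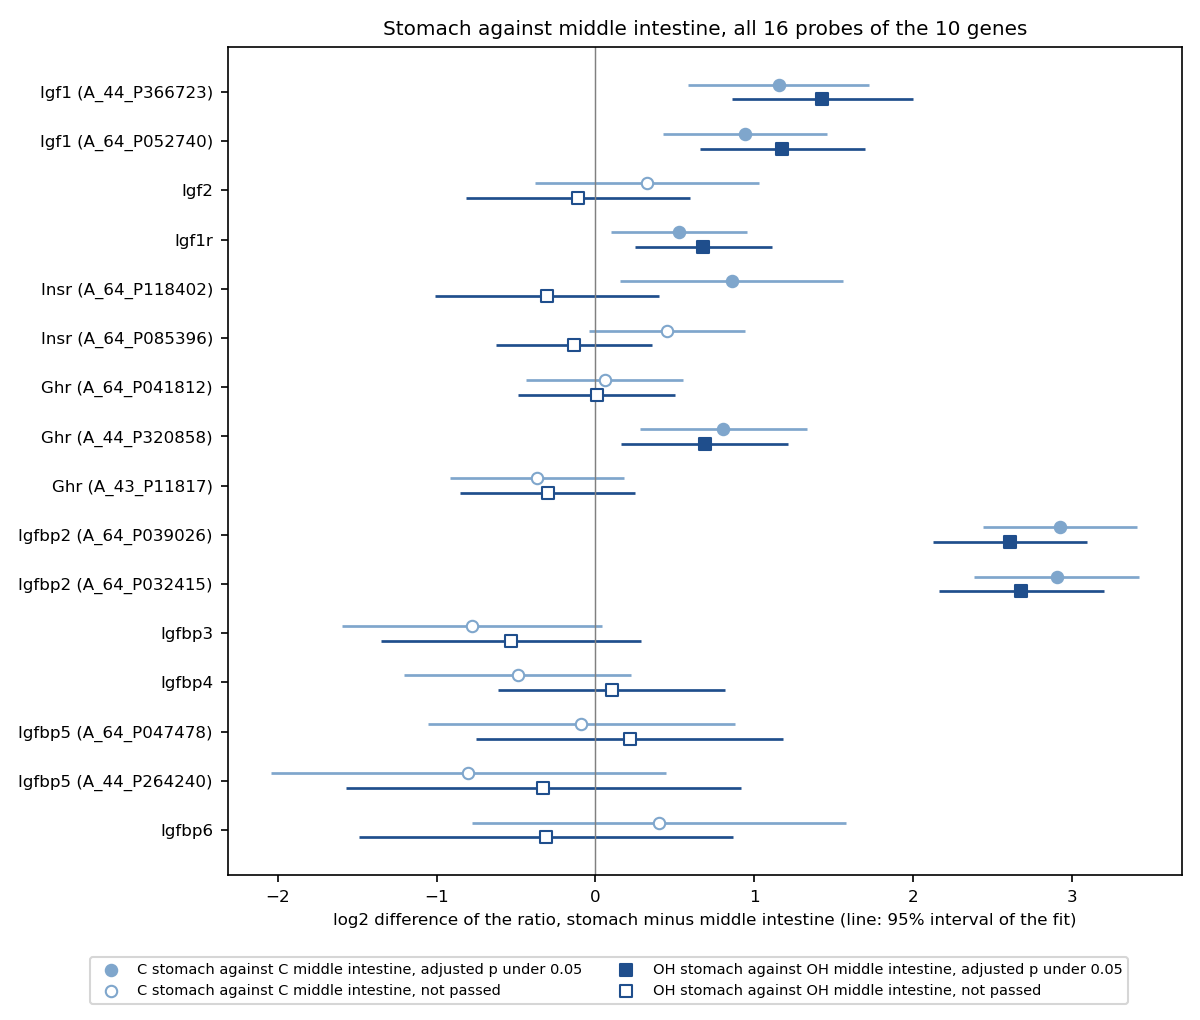
Difference in log2 ratio between stomach and middle intestine for all 16 probes, in C (circles) and OH (squares), with 95% intervals of the limma fit. Filled symbols passed at an adjusted p of 0.05. The 2 Igfbp2 probes lie between 2.61 and 2.92, the 2 Igf1 probes between 0.94 and 1.43, and the Ghr probes on both sides of 0.

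Igf1r, the receptor through which both ligands signal, was read by 1 probe spotted 10 times. It gave -0.01, 0.68, 0.03 and 0.12 on the C stomach arrays and -0.12, -0.31, -0.78 and -0.08 on the C middle intestine arrays. The OH arrays gave 0.08, 0.77, 0.31 and 0.13 in stomach and -0.58, -0.41, -0.33 and -0.11 in middle intestine. Every stomach array lay above every middle intestine array of its own treatment, but the nearest arrays of the C groups stood at -0.01 and -0.08. The difference was 0.52 ± 0.20 (SE, adjusted p = 0.0457, limma) in C and 0.68 ± 0.20 (adjusted p = 0.0151, limma) in OH. The call in C was lost when any 1 of 9 arrays was left out, which were C stomach 2, 3 and 4, C middle intestine 2 and 3, OH stomach 3 and 4, and OH middle intestine 2 and 3, with adjusted p values from 0.0506 to 0.144. The difference fell to 0.36 without C stomach array 2 and to 0.37 without C middle intestine array 3. In OH it was lost only without OH stomach array 2 (0.53, adjusted p = 0.0553, limma).

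Insr, the insulin receptor, was dim on these arrays, and its probes did not give the same result. The brighter probe had log2 ratios of 0.54, 0.98, 0.13 and 0.58 on the C stomach arrays and of -0.54, 0.38, -1.15 and 0.12 on the C middle intestine arrays, and these ranges overlapped. The difference was 0.86 ± 0.33 (SE, adjusted p = 0.0459, limma) in C and -0.31 ± 0.33 (adjusted p = 0.494, limma) in OH. The other probe gave 0.45 in C (adjusted p = 0.123, limma) and -0.14 in OH. In C the Cy5 signal of the brighter probe alone differed by 0.46 (adjusted p = 0.291, limma), and the Cy3 signal of the reference differed by -0.43. The call was lost without any 1 of 9 arrays, which were C stomach 1, 2 and 4, C middle intestine 1 and 3, OH stomach 2 and 4, and OH middle intestine 2 and 4, with adjusted p values from 0.0510 to 0.143, and the difference was 0.57 without C middle intestine array 3 and 0.72 without C stomach array 2.

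Ghr, the growth hormone receptor, gave a different result by probe. In rodents, splicing of this gene also makes a short, soluble growth hormone binding protein that keeps the hormone-binding part and lacks the rest. The upstream probe printed above gave -0.16, 0.69, -0.17 and -0.06 on the C stomach arrays and -1.12, -0.77, -0.34 and -0.68 on the C middle intestine arrays, which did not overlap. The OH arrays gave -0.37, 0.61, 0.31 and 0.56 in stomach and -0.23, -0.19, -0.71 and -0.51 in middle intestine, which did overlap. Its difference was 0.80 ± 0.25 (SE, adjusted p = 0.0158, limma) in C and 0.69 ± 0.25 (adjusted p = 0.0388, limma) in OH. In Cy5 alone it was 0.58 in C (adjusted p = 0.0782, limma), where the call was lost, and 0.84 in OH (adjusted p = 0.0163, limma). The Cy3 signal of the reference differed by -0.26 in C and 0.15 in OH. The probe at the end of the reading frame, the brightest of the gene, gave 0.06 and 0.01, and the third probe gave -0.37 and -0.30, none of which passed. The upstream call in C was lost without C stomach array 2 (0.60, adjusted p = 0.0520, limma) or C middle intestine array 1 (0.67, adjusted p = 0.0532, limma), and that in OH without any 1 of 5 arrays, which were OH stomach 2, 3 and 4 and OH middle intestine 3 and 4, with differences from 0.58 to 0.68 and adjusted p values from 0.0701 to 0.112. The upstream probe minus the mean of the other 2 was 0.58 ± 0.09 (SD, n = 4) in C stomach and -0.38 ± 0.51 in C middle intestine (difference 0.96, exact two-sided permutation test, p = 0.029), and for OH it was 0.49 ± 0.14 in the former and -0.34 ± 0.37 in the latter tissue (difference 0.835, exact p = 0.029). With 4 arrays against 4, 0.029 is the smallest p the test allows, and after Benjamini-Hochberg adjustment over the 4 comparisons made both are 0.057. This comparison was chosen after the values had been seen, and between the treatments it came out as -0.09 in stomach (exact p = 0.257) and 0.03 in middle intestine (exact p = 0.886).

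The other members did not pass between the tissues. Igf2 gave -3.20, -4.27, -3.53 and -2.40 on the C stomach and -3.69, -3.68, -4.04 and -3.28 on the C middle intestine arrays, a difference of 0.33 ± 0.33 (SE, 95% interval -0.38 to 1.03), and in OH the difference was -0.11 (-0.82 to 0.59). In C it was 0.63 without C stomach array 2 and 0.01 without C stomach array 4. Igfbp3, the main carrier of IGF in blood, had a difference of -0.78 (-1.60 to 0.04) in C and -0.53 (-1.35 to 0.29) in OH. Igfbp4, which inhibits IGF action until it is cleaved, differed by -0.49 (-1.20 to 0.22) in C and by 0.10 (-0.61 to 0.81) in OH. In C the difference of Igfbp3 was -0.42 without C middle intestine array 4, and that of Igfbp4 was -0.30 without C stomach array 2. With the fibroblast list as a covariate, Igfbp3 passed in both treatments (-0.67, adjusted p = 0.0349, and -0.71, adjusted p = 0.0326, limma) and Igfbp4 passed in C (-0.38, adjusted p = 0.0237, limma).

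Igfbp5 and Igfbp2 are neighbours on rat chromosome 9, where their nearest probes lie 6122 bases apart on opposite strands in the array design. The brighter Igfbp5 probe differed by -0.09 (95% interval -1.05 to 0.88) in C and by 0.21 (-0.75 to 1.18) in OH, against the 2.92 and 2.61 of Igfbp2. The other Igfbp5 probe differed by -0.80 (-2.04 to 0.44) and -0.33 (-1.57 to 0.92). Igfbp6, which prefers IGF2 over IGF1, differed by 0.40 (-0.78 to 1.58) and -0.31 (-1.49 to 0.87), and its intervals and those of the second Igfbp5 probe were more than 2 log2 units wide. Without C stomach array 2 the difference of Igfbp6 in C was 0.99 (adjusted p = 0.0907, limma).

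The second question was whether obestatin altered the axis. No member passed in OH against C in stomach or in middle intestine, and none passed for the difference between the tissues in OH against C, by limma over all probes. Of all 21174 probes, 0.0% (0 probes) passed in stomach, 0.368% (78 probes) in middle intestine and 0.0% (0 probes) for the difference. At an unadjusted p of 0.05, 0 of the 16 member probes passed in stomach, 1 in middle intestine and 1 for the difference, beside 10.6%, 10.5% and 5.85% of all probes. With Tukey's test, which the study's methods name, 0 of the 10 members passed in either tissue. Of all 21174 probes, 709 passed that test in stomach and 936 in middle intestine. The median difference of the 10 members was 0.05 in stomach and 0.21 in middle intestine, beside 0.01 and 0.00 over all probes.

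Igf1 came out as 0.46 in stomach (95% interval -0.11 to 1.03, adjusted p = 0.563, limma) and 0.19 in middle intestine (-0.38 to 0.76). Of the OH stomach arrays of Igf1 listed above, 2 lay above all C stomach arrays and the others within their range. OH array 3 (-2.05) was near the lowest C array (-2.14). Igfbp2 came out as -0.08 (-0.56 to 0.41) and 0.24 (-0.25 to 0.72), so that a 2-fold change of Igfbp2 in either tissue lay outside its interval. Igf1r came out as 0.12 (-0.31 to 0.55) and -0.04 (-0.47 to 0.39), which also leaves out a 2-fold change. For Igf2 the estimates were -0.28 (-0.99 to 0.42) and 0.15 (-0.55 to 0.86), in the same order. The largest estimates in stomach were those of Igfbp5 (0.74, -0.22 to 1.71) and Igfbp4 (0.62, -0.09 to 1.33). For this Igfbp5 probe Cy5 alone differed by only 0.18 and the Cy3 signal of the reference by -0.55. The other Igfbp5 probe gave 0.18 in the ratio. For Igfbp4 Cy5 alone differed by 0.50 and Cy3 by -0.11. With OH stomach array 1 or 3 left out, the stomach estimate was 0.25 or 0.74 for Igf1, 0.30 or 0.90 for Igfbp4 and 0.45 or 1.02 for Igfbp5. With array weights, 1 member, Ghr by its brightest probe, passed in stomach (0.72, adjusted p = 0.0289, limma), beside 0.41 without weights (adjusted p = 0.549, limma). Over all 21174 probes, 1176 passed in stomach with these weights. Without weights, Cy5 alone of this Ghr probe differed by 0.03 and Cy3 alone by -0.37. The other Ghr probes gave 0.20 and 0.17 in the ratio.

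The largest estimate in middle intestine was that of the brighter Insr probe, at 0.94 (95% interval 0.24 to 1.64, unadjusted p = 0.0120, adjusted p = 0.275, limma). Its OH middle intestine arrays gave 0.18, 0.71, 1.37 and 0.32, against the -0.54, 0.38, -1.15 and 0.12 of the C arrays. The tissue signal did not move with the ratio. The Cy5 signal alone differed by -0.05, whereas the Cy3 signal of the reference, which should be the same RNA on every array, differed by -1.01. A Cy3 difference of -0.9 or below was found for 3.30% of the probes kept in middle intestine and for 0.671% in stomach. The brighter Igfbp5 probe had a Cy3 difference of -0.99 in middle intestine, with 0.44 in the ratio and -0.53 in Cy5 alone, and the brightest Ghr probe had -0.67, with 0.46 in the ratio and -0.19 in Cy5 alone. For Igf1, Igf2, Igf1r, Igfbp2, Igfbp3 and Igfbp4 the Cy3 differences of the brightest probe in middle intestine lay between -0.09 and 0.07.

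**Figure D3:**
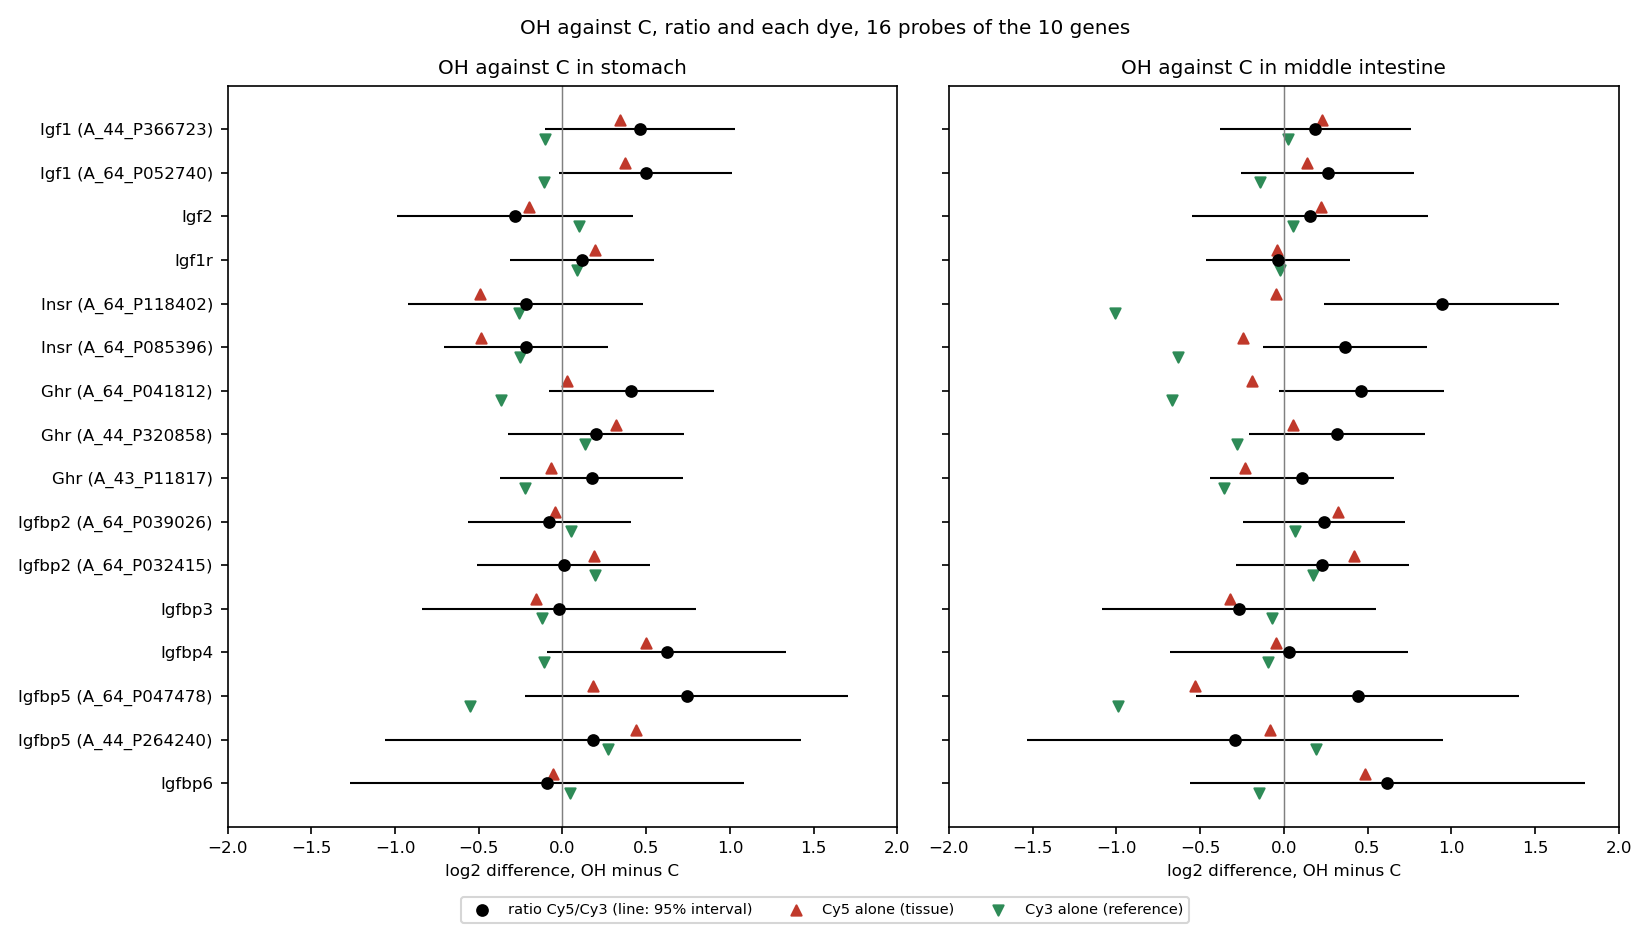
Difference between OH and C for all 16 probes in stomach and middle intestine, as the log2 ratio with its 95% interval (black), as Cy5 alone (red) and as Cy3 alone (green). The interval of only 1 probe, the brighter Insr probe in middle intestine, leaves out 0, and there the green symbol lies at -1.01 and the red at -0.05.

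The arrays within a group differed more than the treatments for several members. In stomach, Igf1, Igfbp4 and Igfbp5 were all highest on OH stomach array 1 and second on OH stomach array 4, and lowest on C stomach array 2 followed by OH stomach array 3. Igfbp4 ran from -2.14 to 0.00 over the 8 stomach arrays and Igfbp5 from -0.85 to 1.34, ranges of 2.13 and 2.19. The mean of the 8 fibroblast genes had the same 2 arrays at the top (0.53 and 0.02) and the same 2 at the bottom (-1.85 and -1.68), and the mean of the 8 smooth muscle genes stood at 0.96 and 0.16 on the former and at -2.57 and -2.59 on the latter. The order was not particular to these lists. The mean of the 4 endothelial genes was -0.24 and -0.35 on OH arrays 1 and 4. It was -1.57 on C array 2 and -1.64 on OH array 3. The mean of the 10 gastric mucosa genes ran the other way, with 2.22 and 2.68 on the former and 3.40 and 3.22 on the latter. With the fibroblast list as a covariate, a setting added after the data had been seen, the OH against C estimate in stomach was 0.13 for Igf1, 0.21 for Igfbp4 and 0.27 for Igfbp5. Without it the estimates were 0.46, 0.62 and 0.74. Igfbp6 and Igf2 were also lowest on C stomach array 2, at -0.93 and -4.27. The mean of the striated muscle genes was -1.03 on that array, 3.01, 2.601 and 3.26 on the other C stomach arrays and 1.00, -0.48, -0.52 and 0.59 on the OH stomach arrays, and the median OH against C difference of the 9 genes in stomach was -2.19, with none passing. Without C stomach array 2 the OH against C estimate in stomach was -0.68 for Igfbp6 and -0.59 for Igf2, and neither passed. The part of fibroblasts, smooth muscle, striated muscle or any other cell type in these values was not tested.

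**Figure D4:**
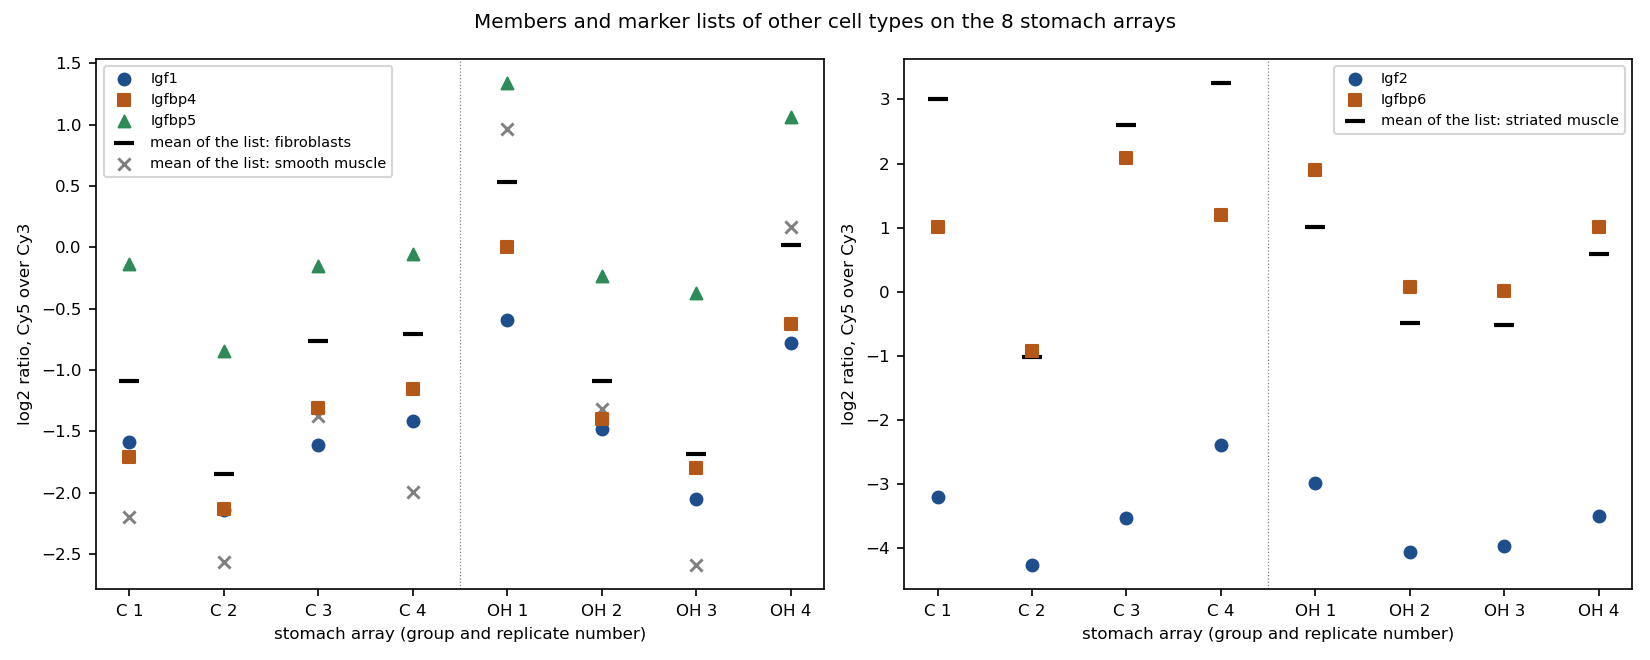
Log2 ratios of members on the 8 stomach arrays beside the mean of marker lists. Left, Igf1, Igfbp4 and Igfbp5 with the fibroblast and smooth muscle lists, all at their highest on OH array 1. Right, Igf2 and Igfbp6 with the striated muscle list, all at their lowest on C array 2.

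The levels of 3 of the 10 members, Igf1, Igf2 and Igfbp4, were under the reference on all 16 arrays, which held for 6.03% of all probes kept. Igf2 stood farthest below, from -4.27 to -2.40, and its mean ratio over the 16 arrays was 0.0903, so that the reference was 11.1-fold above the mean of the samples. Only 1.00% of the probes kept had a mean ratio under 0.25. For Igf1 the mean ratio was 0.269, for Igfbp2 0.373 and for Igfbp4 0.473, and for the 6 other members it lay between 0.637 and 1.95. The 6 liver genes had mean ratios from 0.0134 for Alb, the serum protein albumin, to 0.108 for Serpina1, and H19, the imprinted neighbour of Igf2, had 0.101. The reference is described as RNA of stomach and middle intestine of all rats of the study, of which these arrays hold some, and dyes were not swapped, so a dye effect and the make-up of the reference cannot be told apart. A difference between groups does not depend on the level of the reference as long as it is the same on every array. In the raw signal this did not hold between the treatments. The median raw Cy3 signal, before correction for dye, was 188 to 195 on the C arrays and 341 to 399 on the OH arrays. What this did to the ratios in OH against C was not tested.

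**Figure D5:**
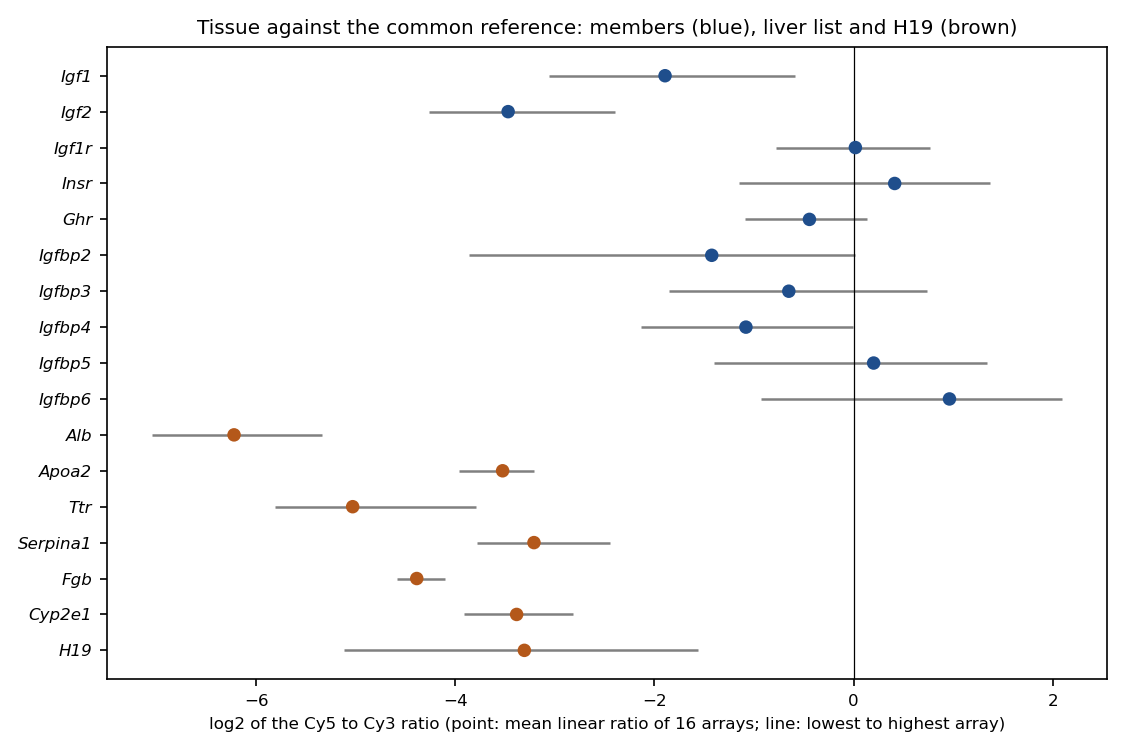
Mean Cy5 to Cy3 ratio over the 16 arrays on a log2 axis, with the lowest and highest array, for the 10 members (blue) and for the liver list and H19 (brown). Igf2 lies among the liver genes, 11.1-fold under the reference, whereas Igf1r lies at 1.01.

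Other genes around the axis were taken from lists, of which the 3 largest differences per list between C stomach and C middle intestine are named. Of 12 other IGF binding and processing proteins, 9 were kept, and 2 passed as higher in C stomach and none as lower, beside 22.7% and 22.3% of all probes. Between the OH tissues 2 passed as higher and 1 as lower, beside 19.2% of all probes as higher and 38.2% in either direction. Igf2r, the receptor that takes IGF2 up for degradation, was higher by 0.65 ± 0.18 (SE, adjusted p = 0.00854, limma) in C. In OH its difference was 0.03 (adjusted p = 0.904, limma), so it passed in C only. Igf2bp1, an RNA-binding protein that attaches to Igf2 transcripts, was higher by 1.92 ± 0.48 (adjusted p = 0.00505, limma) in C. In OH it came out as 1.01 (adjusted p = 0.112, limma) and did not pass. It was well above background on 1 of 4 C and 3 of 4 OH middle intestine arrays, so it was kept through the stomach groups alone. Both the size of the difference and its p-value are therefore uncertain, and the gene is among the 2 counted as higher in C. The difference in C was 0.44 with normexp and loess.

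Of 9 genes of growth hormone signalling, 7 were kept, and 3 passed as higher in C stomach and 3 as lower, beside 22.7% and 22.3% of all probes. Between the OH tissues 2 passed as higher and 3 as lower, beside 19.2% of all probes as higher and 38.2% in either direction. Socs2, a feedback inhibitor of growth hormone signalling, gave between -2.10 and -1.21 in C stomach and between -0.19 and 0.39 in C middle intestine, a difference of -1.88 ± 0.23 (SE, adjusted p = 1.6e-05, limma). Ghrhr, the receptor for growth hormone releasing hormone, differed by -2.66 ± 0.34 (adjusted p = 2.1e-05, limma). It was well above background on 1 of 4 C stomach and 1 of 4 OH stomach arrays, so it was kept through middle intestine alone. Both the size of the difference and its p-value are therefore uncertain, and the gene is among the 3 counted as lower in C. The difference was -0.61 under normexp and loess. For Socs2 that setting gave -0.97. Cish, another feedback inhibitor, went the other way, with 0.97 ± 0.27 (adjusted p = 0.00854, limma). The median of the 7 genes was -0.09, near the -0.01 of all probes.

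Of 31 genes of receptor signalling, 28 were kept, and 12 passed as higher in C stomach and 1 as lower, beside 22.7% and 22.3% of all probes. The median was 0.31 beside -0.01 over all probes. Between the OH tissues 7 passed as higher and 2 as lower, with a median of 0.22. Of all probes, 19.2% passed as higher there and 38.2% in either direction. Irs4, an adaptor of the insulin and IGF receptors, differed by 2.07 ± 0.39 (SE, adjusted p = 0.000677, limma). It was well above background on 3 of 4 C stomach, 1 of 4 C middle intestine and 0 of 4 OH middle intestine arrays. It was therefore kept through OH stomach alone, where its ratio was highest. Both the size of the difference and its p-value are therefore uncertain, and the gene is among the 12 counted as higher in C. The difference was 0.38 under normexp and loess. Akt2, a kinase downstream of the insulin receptor, gave between 0.66 and 0.86 in C stomach and between -1.11 and -0.80 in C middle intestine, a difference of 1.72 ± 0.23 (adjusted p = 2.8e-05, limma), and 0.71 under normexp and loess. Foxo3, a transcription factor that AKT holds out of the nucleus, differed by 1.66 ± 0.38 (adjusted p = 0.00251, limma) in the ratio and by -1.40 in Cy3 alone. In Cy5 alone it differed by 0.30 (adjusted p = 0.569, limma), and there the call was lost.

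Of 8 imprinted growth genes, 6 were kept, and 2 passed as higher in C stomach and 1 as lower, beside 22.7% and 22.3% of all probes. Between the OH tissues 1 passed as higher and 2 as lower, beside 19.2% of all probes as higher and 38.2% in either direction. H19 was higher by 2.08 ± 0.36 (SE, adjusted p = 0.000352, limma), while Igf2 beside it on the chromosome did not pass. Cdkn1c, an inhibitor of the cell cycle, was lower, with a difference of -1.48 ± 0.41 (adjusted p = 0.00974, limma). Plagl1, a zinc finger transcription factor, was higher by 1.09 ± 0.41 (adjusted p = 0.0412, limma), a call that was lost without any 1 of 7 arrays (C stomach 1, 3 and 4, C middle intestine 1, 2 and 3, and OH stomach 2), with adjusted p values from 0.0501 to 0.113.

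In OH against C, 1 gene of these 4 lists passed, which was Igfbp1 in middle intestine, a binding protein made mainly in the liver and lowered by insulin. It gave -1.54, -1.52, -1.33 and -1.62 on the C and -2.03, -2.22, -1.96 and -2.19 on the OH middle intestine arrays, which did not overlap. Downward calls made up 0.0331% of all probes in this comparison. It fell by 0.60 ± 0.12 on the log2 scale (SE, adjusted p = 0.0497, limma), or 1.51-fold, with a difference of -0.67 in Cy5 alone (adjusted p = 0.0169, limma) and -0.09 in Cy3 alone. In stomach it gave -1.52, -1.42, -1.65 and -1.76 on the C and -2.09, -1.95, -1.88 and -2.32 on the OH arrays, a difference of -0.47 ± 0.12 (adjusted p = 0.246, limma) that did not pass although the groups did not overlap either. Groups without overlap were found for 7.60% of all probes in stomach and 5.85% in middle intestine. The difference between the tissues was 0.12 (95% interval -0.24 to 0.49). The call in middle intestine lay at the threshold and was lost when any 1 of 14 arrays was left out, the exceptions being C stomach array 2 and OH stomach array 4, with adjusted p values from 0.0544 to 0.143, although the estimate stayed between -0.65 and -0.54. The mean of the 6 liver genes was -4.56 to -4.39 on the C and -4.41 to -4.20 on the OH middle intestine arrays.

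Over the 16 arrays and 14510 genes with 1 probe each, the genes whose log2 ratio was most like that of Igf1 were Sfrp2 (Pearson's r = 0.970), Pi16 (0.969) and Srpx2 (0.968). These are descriptions of arrays that share the tissue difference and the reference. Sfrp2, a secreted regulator of Wnt signalling, had group means in stomach of -1.04 (C) and -0.22 (OH) and in middle intestine of -5.37 (C) and -4.79 (OH), and so had the same order of groups as Igf1. Among the other members, Igfbp2 was closest to Igf1 (r = 0.863). For Igf2 the closest genes were Myom1 (0.913), Pde4dip (0.900) and Pygm (0.895), and the closest member was Igfbp6 (0.662). Between Igf1 and Igf2 the correlation was 0.391.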

How the data were processed

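Total RNA of stomach and middle intestine was measured on 16 arrays, grouped by their labels. The authors deposited Agilent Feature Extraction output, in which each spot has a raw, a background and a processed intensity per dye, the last corrected for background, spatial trend and dye (Lowess). The headers name version 10.10.1.1, and the submitters' processing notes name 10.7.3.1. A log10 ratio of the same spots was deposited by the authors as a separate table. No value had been scaled between arrays.

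Spots marked as outliers were left out, spots of a probe were averaged, and the log2 ratio of the processed intensities was used. Of 30367 probes, 21174 were kept, which needed a Cy5 signal well above background on each of the 4 arrays of at least 1 group and at least 3 values in every group. Group means were fitted to all 16 arrays with limma (version 3.58.1, R version 4.3.3), with Benjamini-Hochberg adjustment over all probes kept and a threshold of 0.05. Cy5 alone and Cy3 alone were scaled to the 75th percentile of each array. The number of arrays limits the precision. Data were simulated on 21131 probes, with an effect given to 200 of them and none to the others. In C stomach against C middle intestine 60.5% of changes by 1 and 92.0% of changes by 2 log2 units were recovered. Between the OH tissues it was 50.0% and 94.5%. In OH against C it was 62.0% and 91.5% in stomach and 56.0% and 95.0% in middle intestine. For the difference between the tissues in OH against C it was 29.5% and 76.5%. In the real data 44.9% and 38.2% of all probes passed between the C and between the OH tissues. The simulated rates therefore do not carry over to the comparisons of the tissues.

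The members, lists and tests were chosen with earlier results of these data known. Where a gene needed 1 value, its probe with the highest mean Cy5 signal was used. The text names all members, the 3 genes of each list with the largest difference among those that passed in C stomach against C middle intestine, every list gene that passed in OH against C, and the 3 genes most correlated with Igf1 and with Igf2. The alternatives were normexp background correction (offset 50) with loess, Cy5 alone, Aquantile scaling, centring, the log10 table, no filter or a stricter one, outlier spots kept, a fit to the compared groups alone, a replicate block, array weights, eBayes with trend, Tukey's test, unadjusted p, a single probe for each gene, and each array left out in turn. The fibroblast covariate was chosen after seeing the data. Gene names are those of the design on rn4, and 15 of the 16 member probes matched a RefSeq accession of the same symbol in the RefSeq table, of which no coordinate was used. The OL group of the study was not analysed here.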

Additional observations from a re-analysis of the deposited data

Results flagged for a closer look

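Of the 40 combinations of member and group, each with 4 arrays, 1 held an array that lay far from the others by Dixon's test, and chance gives about 2 such combinations. Igfbp5 in C stomach was -0.85 on array 2 and between -0.15 and -0.05 on the other 3 arrays, a gap of 0.875 of the group's range. On this array the striated muscle list was low as well, and the OH against C estimate of Igfbp5 in stomach was between 0.45 and 1.02 when single arrays were left out. No member passed the test for a difference between the tissues in OH against C.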

How the results depend on the processing

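Igfbp2 and Igf1 passed between the tissues, in C and in OH, under every alternative run and without any 1 array. Of the alternatives, Aquantile scaling and an unadjusted p could not lose a call, and they are also in the count of comparisons below. Leaving out an array of a group that is not compared leaves the estimate as it was. Between C stomach and C middle intestine, 2 members passed instead of 4 with normexp and loess, Cy5 alone, no filter, a fit to the compared groups alone, array weights or Tukey's test, since Igf1r and Insr were lost (Igf1r 0.28 and Insr 0.32 with normexp and loess), and 2 to 4 passed when single arrays were left out. In OH against C, 1 member (Ghr) passed in stomach with array weights, and 1 (Insr) in middle intestine and 1 (Insr) for the difference between the tissues at an unadjusted p. Of 1961 comparisons of single genes with an alternative, 1833 kept their direction and side of the threshold, 65 lost and 6 gained a call, and 57 turned direction, all of these for differences that had not passed. The cause of these changes was not tested.

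The number of all probes called in OH against C in stomach, otherwise 0, was 37 with Cy5 alone, 2 with centring, 2 with the log10 table, 639 with no filter, 1176 with array weights, 709 with Tukey's test, 2247 at an unadjusted p and 3 with 1 probe per gene, and ranged from 0 to 311 when single arrays were left out, with 311 without C stomach array 2. In middle intestine, otherwise 78, it was 662 with Cy5 alone, 152 with centring, 1378 with no filter, 1 with the compared groups alone, 936 with Tukey's test, 2213 at an unadjusted p, 7 with 1 probe per gene and 219 with the fibroblast covariate, and ranged from 12 (without C middle intestine array 3) to 88. For the difference between the tissues, otherwise 0, it was 1238 at an unadjusted p and ranged from 0 to 68, with 68 without C stomach array 2.

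The differences that turned direction lay near 0 or did not pass. Between C stomach and C middle intestine, Ghr was -0.14 with Cy5 alone and -0.13 with array weights, and Igfbp5 was 0.04 with the fibroblast covariate. In OH between the tissues, Insr was 0.02 with Cy5 alone, Ghr was -0.01 with normexp and loess and -0.03 with centring, and Igfbp4 was -0.08 with Cy5 alone, -0.06 with array weights and -0.08 with the fibroblast covariate. In OH against C in middle intestine, Cy5 alone gave -0.05 for Insr, -0.19 for Ghr, -0.05 for Igfbp4 and -0.53 for Igfbp5, centring gave 0.00 for Igf1r, and the fibroblast covariate gave -0.09 for Igfbp4. For the difference between the tissues, Ghr was 0.22 with Cy5 alone, 0.30 with array weights and 0.03 with the fibroblast covariate, which also gave -0.04 for Igfbp3 and -0.03 for Igfbp5. With single arrays left out, the ranges that crossed 0 were, in C between the tissues, -0.15 to 0.18 for Ghr, -0.49 to 0.14 for Igfbp5 and -0.02 to 0.99 for Igfbp6, and in OH between the tissues -0.33 to 0.03 for Igf2, -0.13 to 0.17 for Ghr, -0.22 to 0.38 for Igfbp4 and -0.08 to 0.49 for Igfbp5. In OH against C in stomach they were -0.59 to 0.03 for Igf2, -0.03 to 0.28 for Igf1r, -0.17 to 0.13 for Igfbp2, -0.17 to 0.22 for Igfbp3 and -0.68 to 0.32 for Igfbp6. In middle intestine they were -0.19 to 0.04 for Igf1r, -0.54 to 0.09 for Igfbp3 and -0.09 to 0.13 for Igfbp4, and for the difference between the tissues -0.19 to 0.16 for Ghr and -0.11 to 0.52 for Igfbp3.

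Igfbp1 in middle intestine lost its call with the compared groups alone (adjusted p = 0.195, limma), array weights (0.0672), trend (0.106) and 1 probe per gene (0.0807). Plagl1 lost its call with normexp and loess (adjusted p = 0.104), Cy5 alone (0.0816), no filter (0.0580) and Tukey's test (0.115), and Igf2r with Tukey's test.

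Whether arrays of the same number share a rat is not stated. Correlations of deviations from the group means between same-numbered stomach and middle intestine arrays were 0.143, 0.174, 0.058 and 0.246 in C and -0.124, 0.198, 0.022 and 0.321 in OH, so not every pair was over 0.1, and 3 of 4 C and 2 of 4 OH stomach arrays correlated best with the middle intestine array of their own number. With the replicate number as a block, the number of probes called in OH against C in middle intestine was 40 instead of 78, and Igf1r (0.52, adjusted p = 0.0543) and Plagl1 (1.09, adjusted p = 0.0695) between the C tissues and Igfbp1 (-0.60, adjusted p = 0.0543) in middle intestine no longer passed by limma.

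Aquantile scaling leaves the log2 ratio unchanged by its construction. The Cy5 signal was dim for Insr (4.44 to 6.46 on the log2 scale), Ghrhr (down to 1.51), Irs4 (down to 1.60) and Igf2bp1 (down to 2.91), and with normexp and loess, which adds an offset, Igf2bp1, Ghrhr, Irs4, Socs2 and Akt2 kept their calls with smaller differences.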

Other observations

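Afp, the fetal serum protein alpha-fetoprotein, was chosen after its values were seen. Its Cy3 signal in the reference was 17.1 to 17.5 on the log2 scale, while its Cy5 signal in the samples was 11.0 to 12.0, and its mean ratio over the 16 arrays was 0.0173. The ratio lay between -6.33 and -5.29 in every group. Igf2 and H19, which are also most active before birth, had mean ratios of 0.0903 and 0.101.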
